A study of Mus musculus with 8 samples.

Results

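A set of 10 genes that link Toll-like receptors and the interleukin-1 receptor family to the ubiquitin ligase TRAF6 was followed across the study's 8 libraries, 4 wild-type (WT) and 4 Traf6 knockout (KO). They were taken by name, from a list drawn up with earlier results of these data known. They were the adaptors Myd88 and Tirap and the kinase family Irak1, Irak2, Irak3 and Irak4. The Pellino ligases Peli1 and Peli2 and the inhibitors Tollip and Sigirr completed the set. All 10 were found by Entrez gene ID among the 24112 genes of the deposited tables, and all 10 passed the filter on low values. The cells, Lineage-Sca1+Kit+ (LSK), are the part of the marrow in which blood stem and early progenitor cells are concentrated, and were sorted from C57BL/6 mice reconstituted with donor marrow. WT marrow was Vav-Cre+, so the controls also carry the Cre recombinase, which the Vav promoter drives in blood cells. KO marrow was Traf6-/-;Vav-Cre+. The labels give no age and do not say whether the 4 libraries of a genotype were from different animals, so p-values reflect only the scatter among libraries, some of which may be technical.

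When a Toll-like or interleukin-1 receptor binds its ligand, the adaptor MYD88 joins the receptor tail, and for some receptors TIRAP bridges the contact. MYD88 gathers IRAK4, which activates IRAK1 and IRAK2, and these pass the signal to TRAF6. IRAK3, also called IRAK-M, lacks normal kinase activity and restrains the complex, TOLLIP holds IRAK1 in check, SIGIRR is a receptor-like inhibitor, and the Pellino proteins are ubiquitin ligases that bind IRAKs. The genes described here therefore act upstream of, or beside, the protein deleted in the KO cells.

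RPKM counts reads relative to the length of the gene and to the total of the library, so levels of different genes can be set side by side. Depth, estimated from the steps between low values, was 19.2 to 24.85 M reads in the WT libraries and 22.5 to 30.7 M reads in KO (M, mega). Lane 5 held KO3 and KO4, and lane 4 held the remaining 6 libraries. KO3 stood apart: of 3943 genes with a mean above 20 RPKM it listed 175 at 0 (4.44%), against 6 to 61 in the other 7 libraries. A value of 0 is therefore written as listed at 0, and the genotype difference of each member is given below with and without KO3. Traf6 itself was at 14.9, 3.52, 9.40 and 7.10 RPKM in WT1 to WT4 and at 0.613, 0.818, 0 and 0.00721 RPKM in KO1 to KO4, low in every KO library as labelled. All 10 LSK markers listed were above the filter, with Kit, a receptor used for the sort, at 78.4 ± 4.24 RPKM in WT and 74.8 ± 27.3 in KO (SD, n = 4 per group). Kit had the smallest log2 difference of the 10 (-0.13, KO minus WT of log2(RPKM + 1)). All 10 differences were below 0 with and without KO3, where 61.0% and 54.3% of all genes were. Their medians were -0.81 and -0.64. In limma's test 0 of the 10 passed an adjusted p of 0.05. At an unadjusted p under 0.05, 4 were lower, against 535 of all 11276 genes. Summed over those 10 markers the level was 632 to 704 RPKM in WT and 450 to 573 in KO. The sum of 10 granulocyte-monocyte progenitor markers was 665 to 1910 RPKM in WT and 2180 to 8072 in KO, and that of 9 mature neutrophil markers was 23.6 to 35.4 in WT and 27.2 to 189 in KO, highest in KO1. Single genes made up much of the neutrophil sums: Cxcr2 was at 20.2 to 28.1 RPKM across all libraries, and Lcn2 was at 142.5 RPKM in KO1. The B cell markers Cd79a, Ms4a1, Pax5 and Igll1 were listed at 0 in all libraries. The part of these cell types in the results below was not tested, and in bulk RNA fewer cells of a type and less RNA per cell cannot be told apart.

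The DNA just before the start of transcription is shown for Myd88, because it holds the sole motif found among the members, and for Irak1 and Irak4, the kinases on which the results turn. Each run is the 250 bases upstream of the RefSeq start on GRCm38.p6, 5′ to 3′ on the strand of the gene. Capitals mark the motif match, and the other sequences have none. Myd88 lies on the minus strand (chr9:119340019-119340268), Irak1 on the minus strand (chrX:74023922-74024171) and Irak4 on the plus strand (chr15:94543410-94543659).
Myd88: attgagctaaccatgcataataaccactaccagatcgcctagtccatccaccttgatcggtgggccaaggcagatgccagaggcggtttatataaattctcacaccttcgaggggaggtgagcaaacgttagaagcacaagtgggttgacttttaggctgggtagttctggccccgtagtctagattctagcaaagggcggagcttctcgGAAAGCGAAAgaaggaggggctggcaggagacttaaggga
Irak1: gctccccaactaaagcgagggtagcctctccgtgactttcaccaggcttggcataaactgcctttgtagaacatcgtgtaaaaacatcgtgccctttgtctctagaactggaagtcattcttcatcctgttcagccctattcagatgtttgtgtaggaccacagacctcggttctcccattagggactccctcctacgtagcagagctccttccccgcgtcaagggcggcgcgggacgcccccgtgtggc
Irak4: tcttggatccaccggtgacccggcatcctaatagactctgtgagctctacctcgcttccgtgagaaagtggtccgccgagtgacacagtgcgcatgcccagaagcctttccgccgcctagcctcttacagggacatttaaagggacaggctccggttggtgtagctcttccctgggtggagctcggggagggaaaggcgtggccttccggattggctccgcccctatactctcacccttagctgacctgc

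RefSeq's promoter table gave 12 windows of 300 bases for 9 of the 10 members, with none for Sigirr. Both strands were searched for a form of the interferon response element (TTTC followed by any 2 bases and TTTC again), for a form of the NF-κB site (GGG followed by any 2 bases and TTTCC) and for TGANTCA, the AP-1 site. The Myd88 window held the interferon response motif as GAAAGCGAAA, starting 40 bases before the start, a motif found in 3.44% of all 32851 windows. No member window held the NF-κB or the AP-1 form, which were in 1.63% and 7.81% of all windows. The 12 windows had a median of 22 CpG dinucleotides and 61.8% G and C, against 7 and 52.7% over all windows. A match is a run of letters, and a missing match says only that these letters are not in the window.

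None of the 10 genes changed past the threshold in the KO libraries. In limma's test across 11276 genes, 0 of the 10 members passed a Benjamini-Hochberg adjusted p of 0.05, with adjusted p between 0.691 and 0.988. Over all genes tested 0.00% passed, so the count says nothing particular about the members. Traf6 itself, low in every KO library, did not pass in this limma test either (adjusted p = 0.341). Missing the threshold therefore does not show that a gene was unchanged. At an unadjusted p under 0.05 there were 0 members, against 7.51% of all genes, and in no member did the 4 KO values lie apart from the 4 WT values, against 5.92% of all genes. The log2 difference, KO minus WT on the log2(RPKM + 1) scale, which understates changes of low genes, was below 0 in 7 of 10 members and in 61.0% of all genes. Its median was -0.40 over the members and -0.14 over all genes tested. Without KO3 these medians were -0.19 and -0.05, with 7 of 10 members and 54.3% of all genes below 0; 0 members passed the adjusted threshold then, against 0.0177% of all genes (2 genes).

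**Figure D1:**
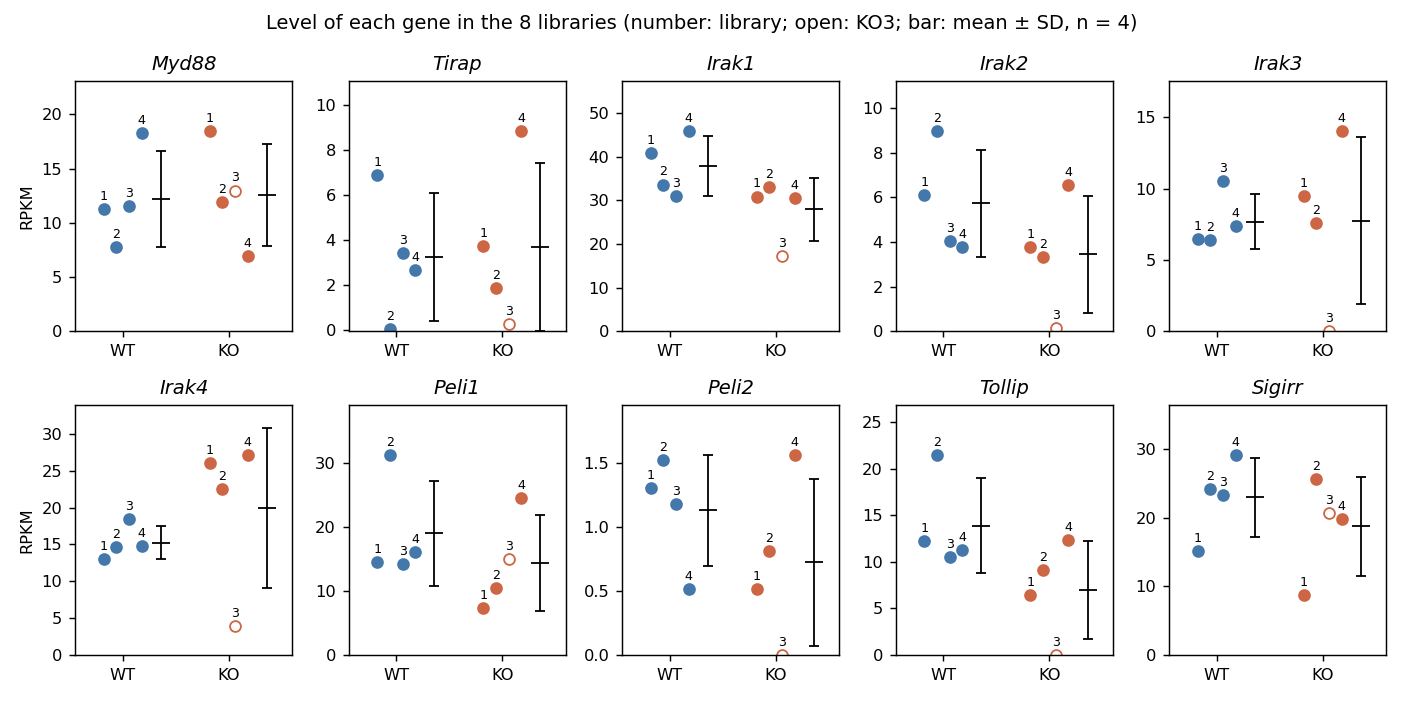
Level in RPKM (vertical axes, a separate linear scale for each gene) of the 10 genes in the 4 WT and 4 KO libraries. Each point is a library with its number, KO3 is open, and bars give the mean ± SD of 4 libraries. KO3 is the lowest point for Irak1, Irak2, Irak3, Irak4, Peli2 and Tollip, and WT and KO points overlap in every panel.

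The adaptor Myd88 was present at moderate level in every library. It was at 11.3, 7.77, 11.5 and 18.3 RPKM in WT1 to WT4 and at 18.5, 11.9, 13.0 and 6.96 RPKM in KO1 to KO4. The highest and the lowest of these 8 values were both KO libraries, and KO3 lay in the middle. The means were 12.2 ± 4.41 and 12.6 ± 4.72 RPKM (SD, n = 4), with a log2 difference of 0.03 ± 0.37 (SE) and a 95% confidence interval of -0.80 to 0.85. That interval leaves room for a change in either direction, and the 2-sided exact permutation test over 70 assignments of the libraries gave p = 0.83. Without KO3 the difference was -0.01 ± 0.38.

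Tirap, the bridging adaptor, was low and uneven. It was at 6.89, 0.0311, 3.41 and 2.66 RPKM in WT1 to WT4 and at 3.73, 1.87, 0.265 and 8.83 RPKM in KO1 to KO4. WT2 and KO3 were nearly empty, while KO4 was the highest of all. The log2 difference of 0.09 ± 0.79 had an interval of -1.67 to 1.85, the widest of the 10 members (exact permutation p = 0.914). Without KO3 it was 0.59 ± 0.72, and without WT2 it was -0.48, so its direction was set by single libraries.

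The IRAK kinases differed from each other in level, and Irak1 led. Irak1, the kinase that hands the signal to TRAF6, was at 41.0, 33.6, 31.0 and 45.9 RPKM in WT1 to WT4 and at 30.9, 33.1, 17.2 and 30.4 RPKM in KO1 to KO4. The 3 KO libraries other than KO3 lay at the lower edge of the WT range, and KO3 lay far below it. The means were 37.9 ± 6.80 and 27.9 ± 7.23 RPKM, and the log2 difference was -0.45 ± 0.26 with an interval of -1.02 to 0.12. It missed the threshold in limma (adjusted p = 0.695) and in the exact permutation test (p = 0.0571, where 0.0286 is the smallest possible). Without KO3 the difference was -0.24 ± 0.20 (adjusted p = 0.725), and in lane 4 alone it was -0.22.

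Irak4, the kinase that starts the cascade, belonged to the members whose difference depended on KO3. It was at 13.0, 14.7, 18.4 and 14.8 RPKM in WT1 to WT4 and at 26.1, 22.5, 3.89 and 27.2 RPKM in KO1 to KO4. KO1, KO2 and KO4 lay above every WT library, and KO3 lay below every WT library. Over all 8 libraries the log2 difference was 0.09 ± 0.52, with an interval of -1.07 to 1.26 and an exact permutation p of 0.971.

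Without KO3 the KO mean was 25.3 ± 2.43 RPKM (SD, n = 3) against 15.2 ± 2.28 in WT. The log2 difference was then 0.70 ± 0.22, with an interval of 0.20 to 1.20 and an exact permutation p of 0.0286, the smallest that 35 assignments allow. In limma the unadjusted p was 0.0112 and the adjusted p over all 11276 genes was 0.420, so Irak4 did not pass. It was the sole member without overlap in this setting, 1 of 10, where 11.0% of all genes did not overlap and 4.35% did so with KO higher. In lane 4 alone, with KO1 and KO2, the difference was 0.65. The summed granulocyte-monocyte progenitor markers were higher in all 4 KO libraries than in any WT library, KO3 included, and their part in the Irak4 values was not tested.

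Irak3, the inhibitory family member, was at 6.45, 6.40, 10.5 and 7.37 RPKM in WT1 to WT4 and at 9.45, 7.56, 0 and 14.04 RPKM in KO1 to KO4. The 3 KO libraries above 0 lay within the WT range or above it, and KO3 listed the gene at 0. The log2 difference was -0.50 ± 0.78 over all libraries and 0.37 ± 0.32 without KO3, so it changed sign, as did Myd88, 2 of 10 members against 20.4% of all genes (adjusted p = 0.866 and 0.731 in limma). At the estimated depth of KO3 the WT mean would be about 536 reads of the longest Irak3 transcript.

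Irak2, which takes part in prolonged signalling, was at 6.11, 8.96, 4.03 and 3.78 RPKM in WT1 to WT4 and at 3.75, 3.34, 0.152 and 6.53 RPKM in KO1 to KO4. KO1 and KO2 lay just below the lowest WT library, and KO4 lay among the WT values. The log2 difference was -0.81 ± 0.63 with an interval of -2.22 to 0.59, and -0.26 ± 0.41 without KO3 (exact permutation p = 0.20 and 0.457).

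Summed over the 4 kinases, the level was similar in 7 of 8 libraries. It was 63.7 to 71.8 RPKM in WT, 70.1, 66.5 and 78.2 RPKM in KO1, KO2 and KO4, and 21.3 RPKM in KO3. Irak1 made up 48.4% to 63.9% of the sum in WT, 38.9% to 49.8% in KO1, KO2 and KO4, and 81.0% in KO3. Irak4 made up 19.6% to 28.8% in WT, 33.9% to 37.2% in KO1, KO2 and KO4, and 18.3% in KO3.

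The ratio of Irak4 to Irak1 was chosen after these values had been seen. It was 0.319, 0.436, 0.595 and 0.322 in WT1 to WT4 and 0.844, 0.681, 0.226 and 0.893 in KO1 to KO4. KO3 had the lowest ratio and the other KO libraries the 3 highest. The mean log2 ratio was -1.31 in WT and -0.78 in KO (exact permutation p = 0.314), and -0.32 in KO without KO3 (p = 0.0571), past no threshold in either case.

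**Figure D2:**
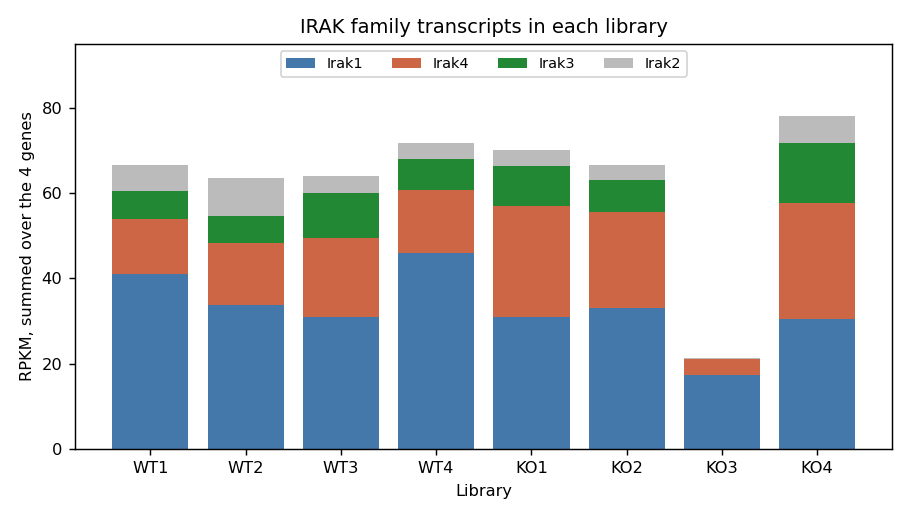
RPKM of Irak1, Irak4, Irak3 and Irak2 stacked in each of the 8 libraries (vertical axis from 0). The stacks are of like height except in KO3, at 21.3 RPKM, and the Irak4 segment is taller in KO1, KO2 and KO4 than in any WT library.

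Tollip, the adaptor that restrains IRAK1, had the most negative log2 difference of the 10 members, and KO3 set its size. It was at 12.3, 21.5, 10.6 and 11.3 RPKM in WT1 to WT4 and at 6.44, 9.17, 0.0120 and 12.3 RPKM in KO1 to KO4. KO1 and KO2 lay below every WT library, KO4 lay among them, and the KO3 value corresponds to about 1.02 reads at its estimated depth. The difference was -1.34 ± 0.74 with an interval of -3.001 to 0.31 (limma adjusted p = 0.692, exact permutation p = 0.114). Without KO3 it was -0.52 ± 0.33 with an interval of -1.27 to 0.23, and in lane 4 alone it was -0.72.

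Sigirr, the receptor-like inhibitor, was at 15.1, 24.2, 23.3 and 29.1 RPKM in WT1 to WT4 and at 8.66, 25.6, 20.7 and 19.8 RPKM in KO1 to KO4. KO1 was the lowest, and the other 3 KO libraries lay within the WT range, KO3 included. The log2 difference was -0.34 ± 0.35 with an interval of -1.12 to 0.44 (exact permutation p = 0.457), and -0.42 ± 0.37 without KO3.

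The Pellino ligases were at unlike levels. Peli1 was at 14.4, 31.3, 14.2 and 16.0 RPKM in WT1 to WT4 and at 7.30, 10.5, 15.0 and 24.4 RPKM in KO1 to KO4. KO1 and KO2 lay below every WT library, and KO3 and KO4 lay among them. All WT libraries shared lane 4 with KO1 and KO2, and KO3 and KO4 were in the other lane. Lane and other differences between these KO libraries cannot be told apart, and the part of lane in this split was not tested. The log2 difference was -0.43 ± 0.40 with an interval of -1.32 to 0.46, and in lane 4 alone it was -0.95 (limma adjusted p = 0.778 and 0.397). Without KO3 it was -0.49 ± 0.42.

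Peli2 was the lowest of the 10 members, at 1.30, 1.53, 1.18 and 0.515 RPKM in WT1 to WT4 and at 0.518, 0.811, 0 and 1.57 RPKM in KO1 to KO4. The groups overlapped broadly, and the difference was -0.36 ± 0.45 (exact permutation p = 0.371), and -0.13 ± 0.46 without KO3. Of the 50-base runs in Peli2 transcripts, 9.05% also occur in other genes, among them Gapdh and the processed pseudogene Gm6498, which overlaps its exons, so its low values are uncertain. No 50-base run of any member occurs in another member, and for the other members the share of runs found in any other gene was at most 2.42%.

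**Figure D3:**
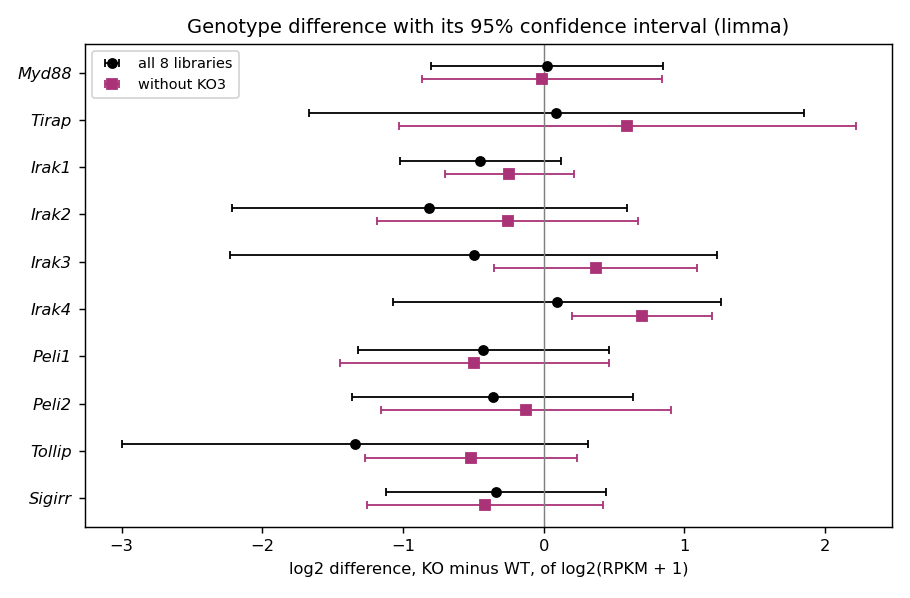
Log2 difference, KO minus WT, of log2(RPKM + 1) for each gene with its 95% confidence interval from limma, over all 8 libraries (circles) and without KO3 (squares). Every interval over 8 libraries crosses 0, and without KO3 that of Irak4, 0.20 to 1.20, does not.

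Levels ranged from Irak1, the highest, to Peli2, the lowest, in both groups. In WT the order of mean RPKM was Irak1 (37.9 ± 6.80), Sigirr (22.9 ± 5.80), Peli1 (19.0 ± 8.23), Irak4 (15.2 ± 2.28), Tollip (13.9 ± 5.13), Myd88 (12.2 ± 4.41), Irak3 (7.69 ± 1.95), Irak2 (5.72 ± 2.40), Tirap (3.25 ± 2.83) and Peli2 (1.13 ± 0.44). Only Irak1 stood clear of its neighbour, since from Sigirr down each mean ± SD overlapped the next. In KO, Irak1 led and Peli2 was last again, and Irak4 was second at 19.9 ± 10.9 RPKM. There every neighbour overlapped. Without KO3, Irak1 (31.5 ± 1.42) stood clear of Irak4 (25.3 ± 2.43), and Irak2 (4.54 ± 1.73) stood clear of Peli2 (0.965 ± 0.540). Against all genes tested, mean Irak1 lay at percentile 78.5, Myd88 at 49.9 and Peli2 at 0.372.

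KO3 was the lowest of the 8 libraries for 6 of 10 members, Irak1, Irak2, Irak3, Irak4, Peli2 and Tollip. It was the lowest for 30.3% of all genes tested. In all, 5 members were below 1 RPKM in KO3, among them Irak3 and Peli2 listed at 0, and 28.2% of all genes tested were below 1 RPKM there. The median member was at 2.08 RPKM in KO3 and at 7.98 to 13.2 RPKM in the other libraries. Myd88, Peli1 and Sigirr, by contrast, were within the range of the other libraries in KO3. So was Tirap, at 0.265 RPKM, but it lay above WT2 alone (0.0311 RPKM).

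By Pearson's r over the 8 libraries, the genes most like Myd88 were Coq9 (0.956), Vapa (0.937) and Gm5801 (0.932), and those most like Irak4 were Acot9 (0.985), Cfp (0.981) and Hvcn1 (0.981). These are the highest of 11276 correlations over 8 points, given as a description. The 3 genes most like Irak4 were all listed at 0 in KO3, so they share with it the low value of that library. Cfp, which encodes properdin, a complement protein of myeloid cells, was at 7.50, 5.21, 11.7 and 9.69 RPKM in WT1 to WT4 and at 19.4, 18.5, 0 and 17.97 in KO1 to KO4.

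The rest of the pathway was read from lists of receptors, ligands, kinases and ubiquitin enzymes. Of 71 symbols 70 were in the tables and 57 were tested, and 0 passed the threshold in limma, where 0.00% of all genes did. Their differences were below 0 in 43 of 57, against 61.0% of all genes, and without KO3 in 36 of 57, against 54.3% of all genes. At an unadjusted p under 0.05 there were 4 lower and 1 higher, against 7.51% of all genes (535 lower and 312 higher), so their number was near the background. They are named because they are few and so were chosen after their values were seen. The lower genes were Traf6 itself, the A20 gene Tnfaip3, and the receptor genes Il18r1 and Il1r1. The higher gene was Ly86, which encodes a partner of the receptor-like protein CD180.

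Receptors and co-receptors, the inputs to MYD88, were mostly low. Of 24 listed 18 were tested, 13 with negative and 5 with positive differences, at a median of -0.43; without KO3 10 of 18 were negative, at a median of -0.18. Il1r1, the signalling receptor for interleukin-1, was at 21.2, 9.81, 21.6 and 13.7 RPKM in WT1 to WT4 and at 11.9, 10.2, 4.74 and 5.18 in KO1 to KO4 (log2 difference -0.99 ± 0.40, limma adjusted p = 0.634, and -0.80 without KO3). Il18r1 was at 1.217 to 6.31 RPKM in WT and at 0.220, 0.996, 0 and 0 RPKM in KO (difference -1.51 without KO3; limma adjusted p = 0.541 over all 8 libraries). The 2 receptor-list genes of highest mean over all 8 libraries were Unc93b1, which carries nucleic acid-sensing Toll-like receptors to endosomes, at 49.3 ± 8.92 and 62.5 ± 10.5 RPKM, and Ly86, at 19.0 ± 14.6 and 59.1 ± 25.4 RPKM; in WT alone Cd180 (24.7 ± 9.63 RPKM) was above Ly86. Ly86 was at 0.0490 RPKM in WT1 and at 15.1 to 31.6 in the other WT libraries, with a difference of 2.30 ± 0.997 (limma adjusted p = 0.653), and 2.41 without KO3. Of the ligands, Il18 alone was tested, at 2.22 to 12.3 RPKM in WT and 0 to 6.43 in KO (-1.28 ± 0.71, and -0.725 without KO3), and Il1a and Il33 were listed at 0 in every library.

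Downstream, the list of TRAF6, the TAK1 complex, the IKK complex and their ubiquitin enzymes had 13 of 13 members tested, 9 of them below 0 with and without KO3, at medians of -0.04 and -0.08. Ube2v1, a partner of the ubiquitin-conjugating enzyme UBC13, was at 95.1 ± 13.7 and 101 ± 4.12 RPKM, and Tab2, an adaptor of TAK1, was at 43.2 ± 10.1 and 37.2 ± 8.76 RPKM. The linear ubiquitin enzymes and deubiquitinases had 9 of 10 tested members below 0, at a median of -0.23, and 8 of 10 without KO3, at -0.15. For these lists, too, the share of all genes below 0 was 61.0%, and 54.3% without KO3. Rbck1 and Otulin, the members of highest level, were at 36.8 ± 3.56 and 45.1 ± 11.3 RPKM and at 35.3 ± 9.98 and 34.5 ± 10.98 RPKM. The list of the TRIF arm, kinases and interferon regulatory factors had 7 of 8 tested members below 0, at a median of -0.25, and 5 of 8 without KO3, at -0.07. Its highest levels were those of Tbk1 (41.0 ± 6.94 and 31.0 ± 6.30 RPKM) and Irf3 (24.7 ± 6.12 and 21.3 ± 4.33 RPKM). Other proximal genes had 4 of 7 tested members below 0, at a median of -0.24, and 3 of 7 without KO3, where the median changed sign to 0.13. Their highest levels were those of Btk (30.9 ± 3.004 and 24.7 ± 8.64 RPKM) and Trim30a (18.1 ± 3.28 and 22.0 ± 6.39 RPKM), which has close relatives that may share its reads. Peli3, the third Pellino gene, was at 1.36 RPKM in WT1 and listed at 0 in the other 7 libraries.

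**Figure D4:**
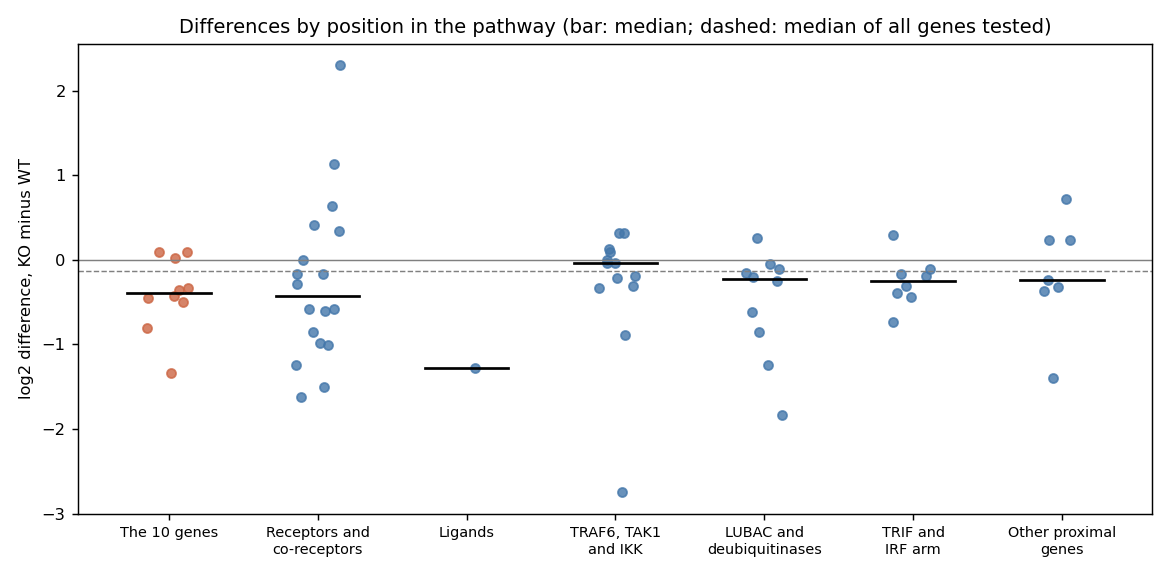
Log2 difference, KO minus WT, of each tested gene (points) by its place in the pathway, with the median of each list (bars) and of all genes tested (dashed, -0.14). The lowest point of the TRAF6 list is Traf6 itself, at -2.75, and no point passed the adjusted threshold.

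Exons of some members overlap a gene on the opposite strand, and the sources used here do not state whether reads were counted by strand. In the GENCODE M21 annotation this touches 11.3% of the exon bases of Myd88 (with Acaa1a), 7.87% of Irak4 (with Twf1), 9.05% of Tirap (with Gm39318) and 5.22% of Irak3 (with Tmbim4). Counted without strand, reads in those stretches cannot be told apart from those of the neighbour.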

How the data were processed

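Per the labels' protocols, poly(A) RNA of LSK cells was sequenced, 1 library per sample. The submitters' processing notes name TopHat, edgeR and mm9, with no role or version; the counting tool and annotation are not stated there. The authors deposited 1 value per Entrez gene and library, taken as RPKM from the values: multiplied by the longest GENCODE transcript they sum to 1.14 to 1.17 M per library. Of 24112 IDs, 24029 (99.7%) matched a symbol in a GRCm38.p6 RefSeq table. Reads could not be recovered: 54.3% to 65.2% of 46 to 92 low values per library were whole within 0.05 reads at the best depth. So no count test was run and depths are approximate.

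The 11276 genes reaching 1 RPKM in 4 or more libraries were tested as log2(RPKM + 1) with limma 3.58.1 in R 4.3.3. The fit used eBayes with trend and robust variance, adjusted by Benjamini-Hochberg. In simulated data it called 12.6%, 59.6% and 91.3% of genes given log2 changes of 1, 2 and 4. Those data had normal scatter, no low genes among the changed and no library like KO3, so they do not cover that feature. Exact permutation tests were 2-sided on log2(RPKM + 1). The members and lists were chosen with earlier results of these data known. Named genes were the 10 members, Traf6, the 2 of highest mean level per pathway list, and the 3 most like Myd88 and Irak4. Kit, Peli3, Il1r1, Il18r1, Tnfaip3, Cd180, the ligand genes and the other cell type markers given were added after their values were seen. So were the genes named in the closing section outside these. Of 2 listed Irak1 start sites the upstream one is shown. Protein sequences were not used here. Alternatives were pseudocount, filter, lane, replicate block, scaling, library weights, variance model and leaving out libraries.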

Additional observations from a re-analysis of the deposited data

Results flagged for a closer look

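Values of the 10 members and Traf6 in each group of 4 libraries were checked for a library far from the other 3, which made 22 groups. Chance alone flags about 1 in 20 such groups, and 3 stood out. Irak1 in KO3 was at 17.2 RPKM, with the other KO libraries at 30.4 to 33.1. Peli1 in WT2 was at 31.3 RPKM (31.25), with the other WT libraries at 14.2 to 16.0. Tollip in WT2 was at 21.5 RPKM, with the other WT libraries at 10.6 to 12.3. WT2 listed 47 of the 3943 genes with a mean above 20 RPKM at 0, the most of the 6 lane 4 libraries, and its part in these values was not tested.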

How the results depend on the processing

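Each of the 10 members stayed past no adjusted threshold in all 18 alternatives, with limma adjusted p between 0.239 and 1.0. The differences of Irak1, Irak2, Peli1, Sigirr and Tollip were below 0 in all 18. Signs changed elsewhere: Myd88 was at -0.0198 after rescaling without ribosomal, haemoglobin and mitochondrial genes and at -0.0235 with library weights. Tirap was at -0.45 without WT2, KO3 and KO4 and at -0.37 with library weights, Irak3 at 0.15 with lane as a covariate and in lane 4 alone and at 0.0773 without WT2, KO3 and KO4, and Peli2 at 0.15 with quantile normalization. Leaving out each library in turn gave -0.17 to 0.26 for Myd88, -0.48 to 0.59 for Tirap, -0.93 to 0.37 for Irak3 and -0.14 to 0.70 for Irak4, with Irak4 below 0 without KO1, KO2 or KO4. The cause was not tested.

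Over all genes the count of 0 became 2 in lane 4 alone (Gem and Jchain), 3 without WT2, KO3 and KO4 (Gem, Jchain and Emp1) and 164 with library weights, and leaving out each library gave 0 to 2, the 2 being Gem and Gimap6 without KO3; all these named genes were lower and were chosen after their values were seen. With library weights Traf6 passed (-2.52, adjusted p = 0.00785; 0.00785 to 0.889 over its alternatives), and 2 listed pathway genes did, Traf6 and Tnfaip3. The median of all genes moved from -0.14 to 0.00 with quantile normalization, which took the share below 0 from 61.0% to 50.0%. Same-numbered WT and KO libraries showed no sign of deviating together (correlations of -0.08 to -0.04). Single libraries such as KO3 stood far from their group, so these correlations cannot exclude a pairing. With the replicate block 0 genes passed and Traf6 was at -2.75 (limma adjusted p = 0.76).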

Other observations

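WT2 and KO4 stood at the same end of their groups for 5 of the members named here. This was noticed after the values had been seen and was not tested, and the share of all genes for which it held was not counted. Of all genes tested, WT2 was the highest of the 8 libraries for 17.06% and the lowest for 14.05%. For KO4 these shares were 17.59% and 14.69%. Such shares concern 1 library among all 8, not 2 libraries within their groups, so they are no background for the 5 members. Whether the 5 members are particular cannot be told. WT2 was the highest of the 4 WT libraries for Irak2 (8.96 RPKM), Peli1 (31.3), Peli2 (1.53) and Tollip (21.5), and KO4 was the highest of the 4 KO libraries for the same genes, at 6.53, 24.4, 1.57 and 12.3 RPKM. Both were the lowest of their group for Myd88, at 7.77 and 6.96 RPKM. They stood at opposite ends for Tirap, at 0.0311 and 8.83 RPKM, and for Irak3, at 6.40 and 14.04 RPKM. WT2 and KO4 listed 11169 and 10674 genes above 0, fewer than any other library of their group except KO3, which listed 9055.

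KO1 carried the lowest Peli1 (7.30 RPKM) and Sigirr (8.66 RPKM) of all 8 libraries, together with the highest sum of granulocyte-monocyte progenitor markers (8072 RPKM) and the lowest sum of LSK markers (450 RPKM). KO1 was the lowest library for 2 of 10 members and for 11.45% of all genes tested. These values were set side by side after they had been seen, and the part of cell composition in them was not tested.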
